A study of Mus musculus with 4 samples.

Results

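The BCL2 family decides whether a cell keeps its mitochondria intact, and 10 of its genes were examined for the transcription factor MIZ-1 in splenic B cells: the survival genes Bcl2, Bcl2l1 and Mcl1, the effector genes Bax and Bak1, and the BH3-only genes Bcl2l11, Bbc3, Pmaip1, Bid and Bad. The genes were chosen by name, as the family's main members, and Bcl2 was included as a reported MIZ-1 target in cells of the B lineage. All 10 were found among the 55450 genes of the GENCODE basic annotation of mm10, of which 21951 are protein-coding. Every peak was collected that touched the promoter, taken from 2000 bp before to 1000 bp after any annotated transcript start, or the gene body. The promoter of Bcl2 carried a MIZ-1 peak in both genotypes, as did those of Mcl1, Bax and Bid. The promoters of Bcl2l1, Bak1, Pmaip1 and Bad carried one in the MIZ-1DPOZ list, and no promoter peak was listed for Bcl2l11 or Bbc3. The Bad summit lay 4 bp from the start of Gpr137 and the Bak1 summit 179 bp from that of Ggnbp1. These peaks may therefore belong to the neighbouring genes.

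MIZ-1 (ZBTB17) is a zinc finger protein that binds DNA through its zinc fingers and partner proteins through its POZ domain. Chromatin immunoprecipitation followed by sequencing (ChIP-seq) with an antibody against MIZ-1 (H-190) had been carried out on B220+ splenocytes, which are B cells by this surface marker. MIZ-1WT cells came from wild-type mice, and MIZ-1DPOZ cells from MB1-cre X Miz-1floxedPOZ mice, in which a Cre recombinase driven by the Mb1 (Cd79a) promoter removes the floxed POZ domain in B cells and leaves a MIZ-1 protein with its zinc fingers. The study's methods place all lines on a C57BL/6 background and give an age range in days that is called young adult here. The study also describes a different mix of follicular and marginal zone B cells in the spleens of MIZ-1DPOZ mice. A change of cell mix and a change within cells therefore cannot be told apart here. There were 4 libraries, 1 ChIP and 1 input library for each genotype, so differences between genotypes could not be tested. Peak lists hold no expression values, so neither the B cell label nor the deletion could be checked in them.

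In a resting cell, the survival proteins BCL2, BCL-XL (from Bcl2l1) and MCL1 hold the effectors BAX and BAK in check at the outer mitochondrial membrane. BH3-only proteins sense stress and either block the survival proteins or activate the effectors directly, after which the effectors open pores, cytochrome c leaves the mitochondria and caspases are activated. B cells depend on this balance throughout life: BCL2 and MCL1 sustain mature B cells, and BIM (from Bcl2l11) removes autoreactive ones.

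The sequences under the promoter summits are shown because each summit is the highest point of its peak. How precisely a summit places the protein was not measured. Each is read 5′ to 3′ along the strand of its gene from the mm10 (GRCm38) reference and is centred on the summit of the promoter peak with the largest −log10 q in its list. Each window reaches 50 bases to both sides of the summit, or holds 29 bases where it would include annotated untranslated region, and none is shown for Pmaip1. Capitals mark matches to the motifs described further on, of which the GC box GGGCGG and its reverse complement CCGCCC were the ones present. The survival genes come first:
Bcl2 MIZ-1WT, chr1:106714242-106714270, minus strand: gccgccgccaacaccgaggtgcccaggcc
Bcl2 MIZ-1DPOZ, chr1:106713992-106714020, minus strand: cccgcagcgcaccacacacagtgcgcggg
Bcl2l1 MIZ-1DPOZ, chr2:152831142-152831242, minus strand: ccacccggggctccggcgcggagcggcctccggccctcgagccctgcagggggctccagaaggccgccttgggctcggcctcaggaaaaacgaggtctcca
Mcl1 MIZ-1WT, chr3:95658937-95659037, plus strand: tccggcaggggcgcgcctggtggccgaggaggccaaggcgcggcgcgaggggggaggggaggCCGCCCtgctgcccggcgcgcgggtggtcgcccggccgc
Mcl1 MIZ-1DPOZ, chr3:95658871-95658971, plus strand: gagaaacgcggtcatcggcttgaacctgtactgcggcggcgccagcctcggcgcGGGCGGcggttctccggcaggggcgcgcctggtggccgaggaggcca
Both Mcl1 windows, with summits 66 bp apart, share 35 bases. The shorter windows of Bcl2, with summits 250 bp apart, share 0.

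The effector genes and the BH3-only genes follow in the same form:
Bax MIZ-1WT, chr7:45466611-45466639, minus strand: ccggctcatccgcaccccgagagcggaca
Bax MIZ-1DPOZ, chr7:45466605-45466633, minus strand: catccgcaccccgagagcggacatccgcg
Bak1 MIZ-1DPOZ, chr17:27029066-27029094, minus strand: tctatccataaactcctgtttactctggg
Bid MIZ-1WT, chr6:120916426-120916526, minus strand: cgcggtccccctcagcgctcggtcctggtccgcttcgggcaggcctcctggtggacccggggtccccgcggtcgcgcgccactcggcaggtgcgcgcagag
Bid MIZ-1DPOZ, chr6:120916491-120916591, minus strand: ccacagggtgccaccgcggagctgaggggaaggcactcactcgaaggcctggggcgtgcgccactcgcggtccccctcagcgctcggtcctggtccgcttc
Bad MIZ-1DPOZ, chr19:6941175-6941203, plus strand: tccctggccttggttgctcgtgtccggct
Both Bax windows share 23 of their 29 bases, and both longer Bid windows share 36 bases. The Bak1 window stands apart from the others in composition, with a GC content of 41.4% over its 29 bases, against 65.5% to 85.1% in the other windows.

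In all, 34209 peaks were listed for MIZ-1WT and 78357 for MIZ-1DPOZ. The depth could be recovered from the peak scores. Fragments over each summit (the pileup) were solved from the authors' fold enrichment and −log10 p, and the MIZ-1DPOZ ChIP library came out 1.34 times deeper. At the most frequent local background, the smallest listed pileup was 5 fragments for MIZ-1WT and 6 for MIZ-1DPOZ. Signal below these limits is not listed, so a promoter without a peak may still have held fragments. Intervals are exact 95% intervals and cover counting error only, and the choice of each summit as a peak's highest point is not covered by them.

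In MIZ-1WT cells, 4 of 10 members had a promoter peak, where 30.9% of all protein-coding genes had one. In MIZ-1DPOZ cells, 8 of 10 members had one, beside 48.7% of protein-coding genes. The 8 include Bak1 and Bad, whose peaks also lay near the starts of other genes. Promoter peaks of both lists overlapped at 4 members, beside 23.6% of protein-coding genes. The larger number in the MIZ-1DPOZ list held for the members as it did for protein-coding genes as a whole. With the MIZ-1DPOZ list held to as many peaks as the MIZ-1WT list, 3 members had a MIZ-1DPOZ promoter peak, beside 25.3% of protein-coding genes, so that for the members and for protein-coding genes alike the value lay below that of MIZ-1WT. With peaks limited to a −log10 q of 5 or more, 3 members had a promoter peak in each list, beside 9.77% of protein-coding genes for MIZ-1WT and 33.3% for MIZ-1DPOZ. With a fold enrichment of 5 or more, the numbers were 3 members beside 17.2% for MIZ-1WT and 4 members beside 31.7% for MIZ-1DPOZ. The order of the member counts between the lists thus changed with the cutoff.

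By role, the survival genes had a promoter peak for 2 of 3 members in MIZ-1WT and 3 of 3 in MIZ-1DPOZ cells. For the effectors the counts were 1 and 2 of 2, and for the BH3-only genes 1 and 3 of 5. The shares of all protein-coding genes were 30.9% for MIZ-1WT and 48.7% for MIZ-1DPOZ. With 2 to 5 genes in a role, no contrast between roles can be read from these counts, and none was tested. With gene bodies added, 5 members had a MIZ-1WT peak, beside 44.6% of protein-coding genes. All 10 members had a MIZ-1DPOZ peak, beside 65.8% of protein-coding genes. The 5 members without any MIZ-1WT peak were Bcl2l1, Bak1, Bcl2l11, Bbc3 and Bad.

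**Figure D1:**
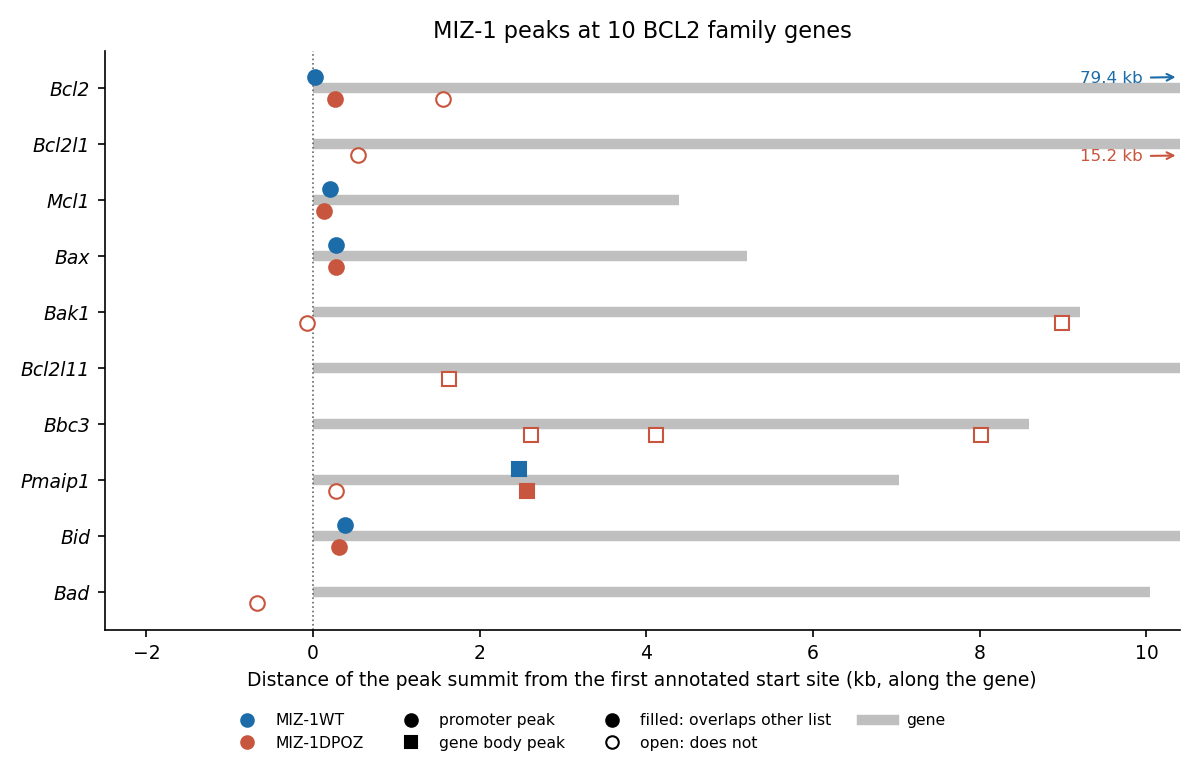
Position of every peak summit at the 10 genes, in kb from the first annotated start site along the gene (horizontal axis). Blue marks MIZ-1WT and red MIZ-1DPOZ, circles are promoter peaks, squares gene body peaks, and filled symbols overlap a peak of the other list. Paired filled circles sit near the start of Bcl2, Mcl1, Bax and Bid, and arrows give 2 summits beyond the axis.

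Bcl2 (ENSMUSG00000057329, chromosome 1 from 106538178 to 106714274, minus strand) encodes the founding survival protein of the family. Its MIZ-1WT promoter peak lay at 106714118 to 106714381, with the summit 18 bp inside the first start site in the untranslated region. This peak rested on 13 fragments (6.92 to 22.2) with a fold enrichment of 7.47 and a −log10 q of 8.09. Among MIZ-1WT promoter peaks, 5.40% had a −log10 q at least as large, which placed Bcl2 highest among the members in that list.

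The overlapping MIZ-1DPOZ peak of Bcl2 lay at 106713888 to 106714303, also with 13 fragments, and had a fold of 5.96 and a −log10 q of 6.90. Its summit lay 268 bp inside the start site, 250 bp from the MIZ-1WT summit, and the peaks shared 186 bp. In that list, 32.7% of promoter peaks had a −log10 q at least as large. A further MIZ-1DPOZ promoter peak, at 106712619 to 106712810 with 12 fragments and a fold of 5.54, had its summit in the coding exon 460 bp past the other annotated start and overlapped no MIZ-1WT peak. Bcl2 was thus the only member with 2 promoter peaks in 1 list.

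Depth-scaled, the MIZ-1DPOZ pileup at the overlapping Bcl2 peaks was 0.746 times the MIZ-1WT pileup (0.319 to 1.75). The interval includes equality, and the ratio sets heights at summits 250 bp apart against each other. A MIZ-1WT gene body peak of Bcl2 lay at 106634803 to 106634950 in an intron, with 8 fragments and a fold of 4.84. It was the only member peak with over 50% repeat-masked sequence (55.2%) and overlapped no MIZ-1DPOZ peak.

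Mcl1 (ENSMUSG00000038612, chromosome 3 from 95658788 to 95663176, plus strand) encodes a short-lived survival protein. Its MIZ-1WT peak at 95658928 to 95659120 had 11 fragments, a fold of 6.45 and a −log10 q of 6.03. The MIZ-1DPOZ peak at 95658710 to 95659562 also had 11 fragments, with a fold of 5.03 and a −log10 q of 4.97. At 853 bp it was the widest of the member peaks and contained the whole 193 bp of the MIZ-1WT peak. Both summits lay in the coding exon, 130 and 64 bp past the nearest start and 66 bp from each other. The depth-scaled ratio of 0.746 (0.293 to 1.90) again included equality.

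Bcl2l1 (ENSMUSG00000007659, chromosome 2 from 152780668 to 152831728, minus strand) encodes BCL-XL. Only the MIZ-1DPOZ list held peaks here. The promoter peak at 152831071 to 152831243 had 10 fragments (4.80 to 18.4), a fold of 4.68 and a −log10 q of 4.19, and its summit lay in an intron 526 bp before the nearest start. A second peak at 152816407 to 152816664 lay in an intron, with 9 fragments and a fold of 4.26. The nearest MIZ-1WT summit was 23636 bp away, before the gene's starts.

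Bax (ENSMUSG00000003873, chromosome 7 from 45461697 to 45466898, minus strand) encodes an effector that moves to mitochondria on activation. Its MIZ-1WT peak at 45466571 to 45466718 was the weakest of the member peaks, with 6 fragments (2.202 to 13.1), a fold of 3.23 and a −log10 q of 1.21. The smallest −log10 q in that list was 1.03, and 99.7% of MIZ-1WT promoter peaks had a −log10 q at least as large as that of Bax. The MIZ-1DPOZ peak at 45466504 to 45466719 had 11 fragments, a fold of 4.86 and a −log10 q of 4.71.

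The summits of both Bax peaks lay 6 bp apart in an intron, 211 and 217 bp past the nearest start. The depth-scaled ratio was 1.37 (0.463 to 4.50), an interval that includes equality. With peaks limited to a −log10 q of 2 or more, 3 members had a MIZ-1WT promoter peak, beside 29.3% of protein-coding genes, and Bax was the member lost.

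Bak1 (ENSMUSG00000057789, chromosome 17 from 27019810 to 27029009, minus strand) encodes BAK, the effector that resides on mitochondria. Its MIZ-1DPOZ promoter peak at 27028982 to 27029215 had 10 fragments, a fold of 4.13 and a −log10 q of 3.41, with the summit 71 bp before the start. The start of Ggnbp1, on the opposite strand, was 179 bp from this summit, so the peak cannot be given to one of these genes by position. Another MIZ-1DPOZ peak at 27019957 to 27020129 lay in untranslated sequence near the end of the gene, with 9 fragments and a fold of 3.53. The nearest MIZ-1WT summit was 31679 bp away.

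Bid (ENSMUSG00000004446, chromosome 6 from 120891930 to 120916853, minus strand) encodes a BH3-only protein that links death receptors to mitochondria once cleaved by caspase-8. The MIZ-1WT peak at 120916384 to 120916590 had 10 fragments, a fold of 5.91 and a −log10 q of 5.05. The MIZ-1DPOZ peak at 120916393 to 120916764 had 14 fragments, a fold of 6.29 and a −log10 q of 7.76. Their summits lay in the first part of the gene, in an intron, 377 and 312 bp past the only annotated start and 65 bp apart. The depth-scaled ratio was 1.04 (0.431 to 2.63), the nearest to equality among the members. Bid and Bcl2 were the members that had a promoter peak with a −log10 q of 5 or more in both lists.

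Pmaip1 (ENSMUSG00000024521, chromosome 18 from 66458533 to 66465565, plus strand) encodes NOXA, which neutralises MCL1 in particular. Its promoter peak was in the MIZ-1DPOZ list, at 66458648 to 66458865, and had 15 fragments (8.40 to 24.7), a fold of 6.71 and a −log10 q of 8.76, the largest of the member promoter peaks in that list. In an intron, 2411 and 2506 bp past the nearest start, both lists had a peak. The MIZ-1WT peak at 66460949 to 66461096 had 8 fragments and a fold of 4.84, and the MIZ-1DPOZ peak at 66460927 to 66461316 had 17 fragments, a fold of 7.67 and a −log10 q of 11.0. The depth-scaled ratio of this pair was 1.58 (0.648 to 4.24). Pmaip1 was thus the member whose sites of both lists overlapped in the gene body and not at the promoter.

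Bad (ENSMUSG00000024959, chromosome 19 from 6941861 to 6951899, plus strand) encodes a BH3-only protein that growth factor signalling inactivates by phosphorylation. A MIZ-1DPOZ peak at 6941019 to 6941282 fell into its promoter window, with 11 fragments, a fold of 3.54 and a −log10 q of 2.78, and its summit lay 672 bp before the nearest Bad start. The summit was 4 bp from the start of Gpr137, a gene on the opposite strand, and within 500 bp of a start Bad had no peak. The nearest MIZ-1WT summit lay 7673 bp before the gene.

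Bcl2l11 (ENSMUSG00000027381, chromosome 2 from 128126038 to 128162547, plus strand) and Bbc3 (ENSMUSG00000002083, chromosome 7 from 16308393 to 16318205, plus strand) had MIZ-1DPOZ peaks in their gene bodies. Bcl2l11 encodes BIM, which binds all survival proteins. Its peak at 128127471 to 128127798 lay just outside the promoter window, in an intron 1617 bp past the nearest start, with 10 fragments and a fold of 4.06. The nearest MIZ-1WT summit of Bcl2l11 was 66195 bp away.

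Bbc3 encodes PUMA, a target of p53, and had 3 MIZ-1DPOZ peaks, more gene body peaks than any other member. The first, at 16312072 to 16312363 in a coding exon 2614 bp past the start, had 18 fragments (10.7 to 28.4), the highest pileup of the member peaks. Its fold was nevertheless 4.97, because the local background there was 2.82 fragments against 1.35 as the most frequent value of the list. The others had 14 fragments at 16313604 to 16313874 (fold 3.60, background 3.17) and 9 fragments at 16317491 to 16317758 (fold 3.40, background 1.94). A local background above the list's most frequent value thus stood beside all 3 peaks of this GC-rich locus, and its part in them was not tested.

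**Figure D2:**
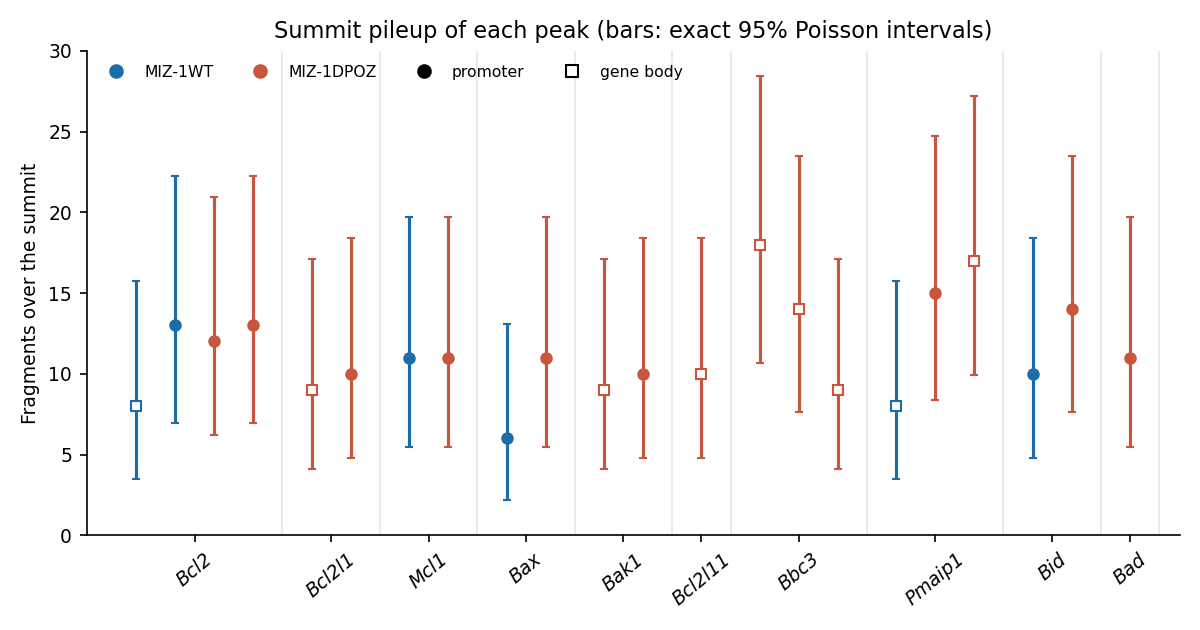
Fragments over the summit of every member peak (vertical axis), grouped by gene, with exact 95% Poisson intervals. Blue is MIZ-1WT, red MIZ-1DPOZ, filled circles promoter peaks and open squares gene body peaks. MIZ-1WT pileups ran from 6 to 13 fragments and MIZ-1DPOZ pileups from 9 to 18, before any scaling for depth, and the intervals were wide at all genes.

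All 5 ratios of overlapping peaks had intervals that included 1, with values from 0.746 at Bcl2 and Mcl1 to 1.58 in the Pmaip1 gene body. Pileups this small cannot show a difference between these libraries of the size seen. At some members the promoter peak was in the MIZ-1DPOZ list alone. Their pileups corresponded at MIZ-1WT depth to 7.46 fragments at Bcl2l1 and at Bak1, 8.20 at Bad and 11.2 at Pmaip1. This scaling adjusts for the number of fragments and not for their length, which was greater in the MIZ-1DPOZ library. The fragments needed for a listed peak rise with the local background. In the MIZ-1DPOZ list this background was 1.66 at the Bak1 peak and 2.39 at the Bad peak, against 1.35 as the most frequent value. At the Bcl2l1 and Pmaip1 promoter peaks it was 1.35 and 1.38, at or next to that value. The MIZ-1WT pileup at these places was not in the files used, and the difference was not tested.

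**Figure D3:**
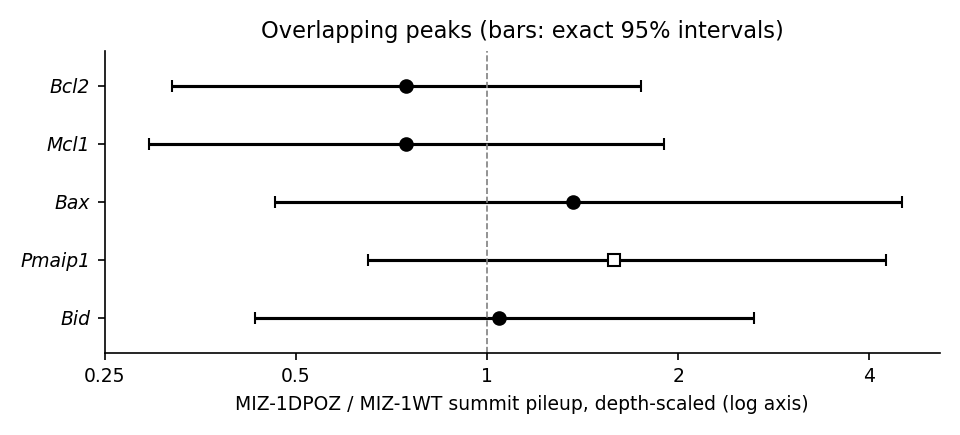
Depth-scaled ratio of the MIZ-1DPOZ to the MIZ-1WT summit pileup at the 5 pairs of overlapping peaks (horizontal log axis), with exact 95% intervals for counting error. Filled circles are promoter pairs and the open square is the gene body pair of Pmaip1. Every interval crosses the dashed line at 1.

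The fold enrichment of the member promoter peaks had a median of 6.18 for MIZ-1WT (4 peaks) and 5.03 for MIZ-1DPOZ (9 peaks). The medians over the promoter peaks of all protein-coding genes were 4.98 and 5.11. In the MIZ-1WT list, Bcl2, Mcl1 and Bid lay above the median and Bax below it. In the MIZ-1DPOZ list the members spread to both sides, from Bad at 3.54 to Pmaip1 at 6.71. Folds were scaled to each library's own background, and these medians were not compared between lists. Ratios of folds served only as another scaling of the pileup ratios at overlapping promoter peaks.

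**Figure D4:**
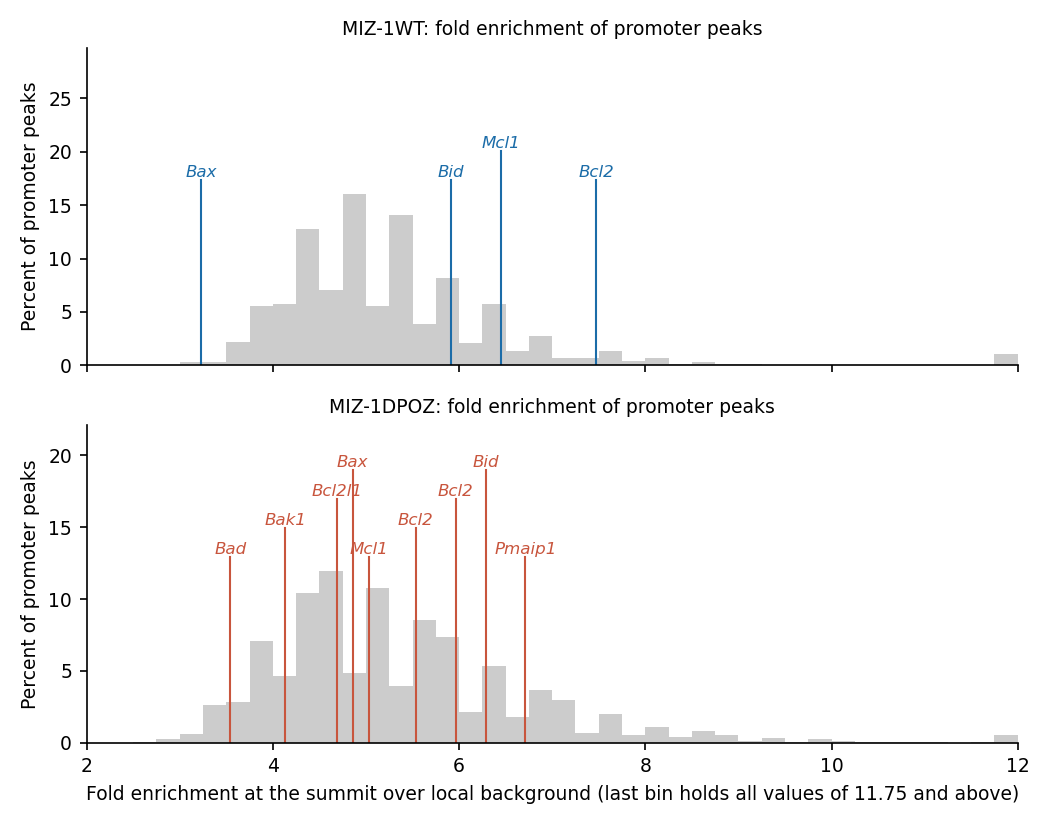
Fold enrichment at the summit (horizontal axis) of the promoter peaks of all protein-coding genes, as percent of peaks per bin (grey), with member promoter peaks as labelled lines. The upper panel is MIZ-1WT and the lower MIZ-1DPOZ. Bcl2 at 7.47 lies to the right of most MIZ-1WT peaks and Bax at 3.23 at the left edge.

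Of the 6 MIZ-1WT peaks at the members, 5 overlapped a MIZ-1DPOZ peak (83.3%, 35.9 to 99.6), beside 53.7% of the whole list and 73.3% of its promoter peaks. Of the 16 MIZ-1DPOZ peaks, 5 overlapped a MIZ-1WT peak (31.25%, 11.0 to 58.7), beside 22.1% and 41.2%. These intervals treat the peaks as independent, although several came from the same gene, and they are not a test against the whole lists. Per length, the members held 16.995 MIZ-1WT and 45.3 MIZ-1DPOZ peaks per Mb of promoter and gene body, beside 16.0 and 35.2 for all protein-coding genes. Without Bcl2, 0.175 of the 0.353 Mb remained, and the other members held 22.9 and 80.0 peaks per Mb, from 4 and 14 peaks. Promoter windows take up more of the length where genes are short. No background of like gene length was counted, so these values cannot be set against 16.0 and 35.2.

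The bases under the member summits were mostly GC-rich and unique in the genome. In windows reaching 100 bp to both sides of the summit, the median GC content was 73.1% for the 6 MIZ-1WT peaks, beside 60.7% over the list and 73.6% over its promoter peaks. For the 16 MIZ-1DPOZ peaks it was 68.7%, beside 60.2% and 70.6%. The highest values in the MIZ-1WT list were at Bcl2 and Mcl1, each at 81.6%, with 31 and 35 CpG dinucleotides. The lowest was the Bcl2 gene body peak at 44.3%. At Bcl2 the MIZ-1DPOZ summit was less GC-rich, at 62.7% with 14 CpG, than the MIZ-1WT summit 250 bp away. The Bak1 promoter summit had 58.2% and 3 CpG, the fewest among the member promoters.

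**Figure D5:**
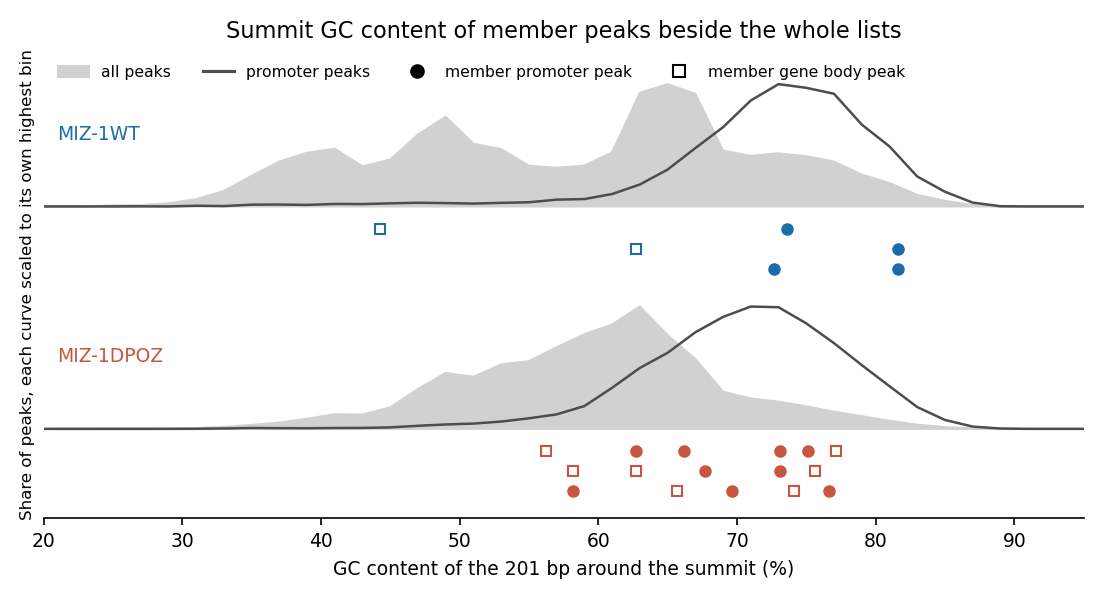
GC content within 100 bp of each summit (horizontal axis, percent). Grey areas show all peaks of a list and lines its promoter peaks, each scaled to its own highest bin, and symbols below are member peaks (filled circles promoter, open squares gene body). Member promoter peaks lie within the range of other promoter peaks, and the Bcl2 gene body peak at 44.3% lies apart.

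Repeat-masked bases made up over 50% of the summit window at 1 of the 6 MIZ-1WT and 0 of the 16 MIZ-1DPOZ member peaks, beside 60.3% and 56.0% over the whole lists and 3.80% and 4.48% at promoters. At every member summit, the median copy number of 5 sequences of 50 bases was 1 in the genome. The member peaks thus lay in sequence that is single-copy by this measure.

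Motifs were searched for within 100 bp of each summit on both strands, and a match is only a description of the sequence. The GC box GGGCGG was found at 3 of the 6 MIZ-1WT peaks, the promoter peaks of Bcl2, Mcl1 and Bax, beside 26.8% of all MIZ-1WT peaks and 65.1% of promoter peaks. It was found at 6 of the 16 MIZ-1DPOZ peaks, at Mcl1, Bax, Bak1 and Bcl2l11 and at a pair of Bbc3 peaks, beside 22.4% and 56.2%. Windows of the same length centred on 41505 start sites of protein-coding genes held it in 40.1% of cases. At Bcl2 it was present under the MIZ-1WT summit and not under either MIZ-1DPOZ promoter summit.

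The E-box CACGTG, which MYC and its partner MAX bind, was found at 0 of the 6 and 0 of the 16 member peaks, beside 3.25% and 3.45% of all peaks and 5.11% of start site windows. The CCAAT box CCAAT was found at 0 of 6 and at 1 of 16, the second MIZ-1DPOZ promoter peak of Bcl2, beside 25.6% and 25.1% of all peaks, 9.29% and 9.91% of promoter peaks and 25.4% of start site windows. Short forms of sequences described for MIZ-1, ATCGGT and ATCGAT, were at none of the member summits. ATCGGT was found at 0.716% of all MIZ-1WT peaks, 0.830% of all MIZ-1DPOZ peaks and 1.65% of start site windows, and ATCGAT at 0.497%, 0.355% and 0.506%. The motifs searched for do not overlap each other at the member summits.

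The rest of the pathway was counted in the same way, and its shares stand beside the 30.9% (MIZ-1WT), 48.7% (MIZ-1DPOZ) and 23.6% (overlapping peaks of both) of all protein-coding genes. Among 13 other BCL2 family genes, 2 had a MIZ-1WT promoter peak (15.4%) and 6 a MIZ-1DPOZ promoter peak (46.2%), and 1 had overlapping peaks of both. Among 8 genes of the apoptosome and the caspases, which act once the mitochondrial membrane has opened, the numbers were 3 (37.5%), 7 (87.5%) and 3. With so few genes in a group, each gene moves these shares widely, and no test was made. The largest −log10 q values in the MIZ-1WT list belonged to Diablo at 5.05, an inhibitor of the caspase blocker XIAP, and to Bok, an effector-like relative of BAX, and Htra2, a mitochondrial protease, both at 4.14. In the MIZ-1DPOZ list, Bcl2l2, which encodes the survival protein BCL-W, had a value of 9.84 and Diablo one of 7.89. Bcl2a1a, Bcl2a1b and Bcl2a1d had no promoter peak in either list. These near-identical copies may share reads, which was not measured, so their values are uncertain.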

How the data were processed

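MIZ-1 ChIP and input libraries of each genotype were sequenced with paired ends, and the authors called narrow peaks separately for each ChIP against its input. The submitters' processing notes name Bowtie2 2.2.6 and MACS2 2.1.0 with mm10, whereas the study's methods name Trimmomatic, bwa and MACS2, so the aligner is uncertain. The q cutoff and the handling of duplicates and reads with several positions are not given in the sources used here. The deposited files give, for each peak, a ratio, the fold enrichment at the summit, with the −log10 of its p-value and of its q-value. The input libraries were not analysed separately here.

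Whole-number pileups and local backgrounds were solved from fold and −log10 p under the formulas of MACS2, and pileups that gave back the deposited −log10 p within 0.001 were found for 100% of peaks in both lists. The depth ratio is that of the most frequent background values, each divided by the smallest peak width. This width was 148 bp for MIZ-1WT and 173 bp for MIZ-1DPOZ, and MACS2 sets it to the fragment length. The ratio adjusts for the number of fragments, and the difference in fragment length was left in the scaled pileups. Start sites came from GENCODE mouse release M21 (basic) on GRCm38, the assembly of mm10, and coordinates are 1-based. Overlap means at least 1 bp. Ratios carry exact binomial intervals with the depth ratio held fixed, pileups exact Poisson intervals and shares Clopper-Pearson intervals. All 10 members are named, and of the other pathway genes the 3 with the largest promoter −log10 q in each list, of which 1 is not reported here. Members, lists and motifs were chosen with earlier results of these data known. Python 3.11.15, numpy 2.4.6, pandas 2.3.3, scipy 1.17.1 and matplotlib 3.10.9 were used.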

Additional observations from a re-analysis of the deposited data

How the results depend on the processing

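No paired analysis was possible because there was 1 ChIP library for each genotype. Stricter cutoffs moved the MIZ-1DPOZ counts most. At a −log10 q of at least 5, 3 members had a MIZ-1DPOZ promoter peak, 2 had overlapping promoter peaks, and the members held 3 MIZ-1WT and 6 MIZ-1DPOZ peaks. At a fold enrichment of at least 5, 4 members had a MIZ-1DPOZ promoter peak, the members held 3 MIZ-1WT and 6 MIZ-1DPOZ peaks, and 100% of the MIZ-1WT peaks were shared. With the MIZ-1DPOZ list held to as many peaks as the MIZ-1WT list, 3 members had a MIZ-1DPOZ promoter peak, 2 had overlapping promoter peaks, and the members held 6 MIZ-1DPOZ peaks. These settings keep fewer peaks by construction, and the 100% was 3 of 3 peaks. The shares of protein-coding genes with a promoter peak under them are given above. With a reciprocal overlap of 50%, 2 members had overlapping promoter peaks and 33.3% of the MIZ-1WT peaks (2 of 6) were shared. No share over the whole lists is given for overlap under any of these settings. Whether the members' overlap moved differently from that of the lists cannot be told. Promoter windows alone left 9 MIZ-1DPOZ peaks. Without repeat-masked summits, and also without Bcl2, 100% of the MIZ-1WT member peaks were shared, because the Bcl2 gene body peak left the count in both cases. The other 48 recomputed values stayed within 1.5 times the reported count or inside the interval of the reported share or ratio. This rule was loose and does not show stability. With lists of equal size, the MIZ-1WT share fell from 83.3% to 50% and still counted as staying. The ratio intervals were so wide that leaving out the depth scaling could not move a ratio outside them. With 1 library per genotype and pileups of at most 18 fragments, variation between mice cannot be seen and only large differences could be resolved.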
